A study of Homo sapiens with 6 samples.

Results

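The genes described are the 10 that encode the enzymes of polyamine synthesis and catabolism and the proteins that control ornithine decarboxylase: ODC1, AMD1, SRM, SMS, OAZ1, OAZ2, AZIN1, SAT1, SMOX and PAOX. They were taken by gene symbol from a table of 60605 genes, and each symbol had 1 row. RNA was sequenced from Huh-7 cells, a human hepatoma line, in 3 libraries of cells given 100 µM pectolinarigenin, a plant flavone, for 24 h, and 3 libraries of cells given the DMSO vehicle (0 µM). Cells of both groups had first been made rich in lipid with 100 µM oleic acid for 24 h and then starved, so no group without oleic acid enters the comparison. Huh-7 is a tumour line and no other line was compared. Nothing in the labels states that a group's 3 libraries are separate cultures, and p-values therefore cover library-to-library spread, which may be technical.

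Polyamines are small positively charged molecules that bind nucleic acids and are needed for translation and growth. Ornithine decarboxylase makes putrescine, to which spermidine synthase and then spermine synthase add aminopropyl groups that come from decarboxylated S-adenosylmethionine. Antizymes bind ornithine decarboxylase and send it to the proteasome, and their own translation needs a ribosomal frameshift that polyamines promote. Catabolism runs through acetylation by SAT1 followed by oxidation by PAOX, or through direct oxidation of spermine by SMOX. Much of the control of ODC1, AMD1, SAT1 and the antizymes is exerted on translation and protein stability, which RNA counts do not measure.

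Pectolinarigenin changed the polyamine transcripts in both directions. SMOX, which oxidises spermine, rose 2.03-fold, and the transcripts of both decarboxylases rose, ODC1 1.44-fold and AMD1 1.30-fold. Both aminopropyl transferases fell, SMS to 0.805 and SRM to 0.780 of the control level, and OAZ2 and AZIN1 fell by less. The calls of SRM and AZIN1 did not hold in every alternative: SRM passed in 10 of 14 and AZIN1 in 5 of 14. OAZ1 and SAT1, the most abundant transcripts of the set in control cells, did not pass the test. PAOX was close to the limit of detection.

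Of the 10 genes, 9 had a mean of at least 1 FPKM (fragments scaled by gene length and library total) over the 6 libraries and were tested with edgeR, with p-values adjusted over all 12829 tested genes. At an adjusted p under 0.05, 7 of these 9 changed, where 50.6% of all tested genes did. The 3 that rose stand against 25.3% of all tested genes called higher, and the 4 that fell against 25.3% called lower. Without pectolinarigenin library 1 or 2, or control library 2 or 3, each left out in turn, 2 fell, and without pectolinarigenin library 3, 5 fell. In 5 of the 9 the FPKM values of the groups did not overlap, which was so in 58.9% of all tested genes. Only SMOX among the 9 passed the test with a change of at least 1.5-fold, which 13.3% of all tested genes did. The median log2 fold change of the 9 was -0.072, against 0.00071 over all tested genes.

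Total counts were 16054283, 16297404 and 20311261 in pectolinarigenin libraries 1 to 3 and 18619775, 18652800 and 15140022 in control libraries 1 to 3. The 10 genes together took 1482 to 1603 CPM (counts relative to the library total) in pectolinarigenin libraries and 1429 to 1447 in control libraries. All 9 hepatocyte markers were present in every library. ALB was at 3340 to 3868 FPKM in pectolinarigenin cells and 5417 to 5518 FPKM in control cells. HNF4A was at 25.1 to 26.5 and 28.7 to 32.0 FPKM in the same order. AFP, TF, TTR, SERPINA1 and FGB were also lower in every pectolinarigenin library. The groups overlapped in APOA1 (553.7 to 684.5 and 621 to 709.5 FPKM) and APOB (304.6 to 438.9 and 412.3 to 432.7 FPKM). PTPRC, a leukocyte marker, reached at most 0.01 FPKM and COL1A1, a fibroblast marker, at most 0.21 FPKM in any library. PECAM1, an endothelial marker, lay at 1.15 to 1.35 FPKM in pectolinarigenin cells and 2.28 to 2.61 FPKM in control cells, and EPCAM, an epithelial and progenitor marker, at 50.7 to 56.8 and 47.2 to 49.4 FPKM in the same order. The part of these markers in the results on polyamine genes was not tested. Pectolinarigenin library 3 was the deepest and differed most from the others of its group, with a chi-square of 10.4 and 13.6 per degree of freedom against libraries 2 and 1, where libraries 1 and 2 gave 5.32 against each other. Control libraries gave 1.60 to 3.13 against each other, so every pectolinarigenin pair differed more than every control pair.

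Promoter windows are shown for ODC1 and SRM, the genes among the 7 with an entry in the RefSeq promoter table (GRCh38.p14) whose windows hold the letters CACGTG, an E-box of the kind bound by MYC with its partner MAX. Both genes are widely described as MYC targets. ODC1 was called higher here and SRM lower, but the groups of SRM overlapped and its call held in only 10 of 14 alternatives. Whether MYC bears on either gene was not tested. Each window has 300 bases, most of them before the annotated start site and the last ones after it, and is printed 5′ to 3′ on the gene's own strand, with the E-box in capitals. That of ODC1 (chr2:10447963-10448262, minus strand) belongs to the more downstream of 2 listed starts and holds 2 copies, beginning at bases 222 and 256 of the window, the second of them past the start site. The window of SRM (chr1:11059969-11060268, minus strand) holds 1 copy, at base 52.
ODC1: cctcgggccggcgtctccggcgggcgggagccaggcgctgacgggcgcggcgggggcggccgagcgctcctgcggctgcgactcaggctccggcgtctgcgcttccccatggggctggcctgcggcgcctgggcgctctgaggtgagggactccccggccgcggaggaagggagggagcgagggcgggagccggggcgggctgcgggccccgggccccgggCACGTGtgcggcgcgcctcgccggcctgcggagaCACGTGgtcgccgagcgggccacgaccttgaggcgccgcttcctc
SRM: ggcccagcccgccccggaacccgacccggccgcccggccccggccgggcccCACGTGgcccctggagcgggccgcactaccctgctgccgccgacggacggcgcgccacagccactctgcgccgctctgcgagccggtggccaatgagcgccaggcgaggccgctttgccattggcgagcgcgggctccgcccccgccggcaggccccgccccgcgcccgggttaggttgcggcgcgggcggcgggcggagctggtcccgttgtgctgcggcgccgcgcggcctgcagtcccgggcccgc
The E-box reads the same on both strands and occurs in 7.26% of the 35116 promoter windows in that table. The other ODC1 window (chr2:10448278-10448577) holds no E-box but holds TGACNNNGC, an antioxidant response element of the kind bound by NRF2, which 13.3% of all windows hold on either strand. An AP-1 site (TGANTCA, in 7.71% of all windows) was in the OAZ2 window alone among the 7 genes, and a C/EBP-ATF composite site (TGATGNAAT, in 0.991%) was in none of them. None of these matches overlap each other. A match of letters is a description of these windows and does not show that a factor binds there.

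Synthesis begins with ODC1 (ENSG00000115758, chromosome 2, 10439968 to 10448504, GRCh38), the enzyme that turns ornithine into putrescine. It stood at 100.3, 104.5 and 110.6 FPKM in pectolinarigenin libraries 1 to 3 and at 67.3, 73.1 and 73.5 FPKM in control libraries 1 to 3. All pectolinarigenin values lay above all control values. The means were 105 ± 5.2 and 71.3 ± 3.47 FPKM (SD, n = 3 each), and the log2 fold change was 0.52 (SE 0.06; edgeR, adjusted p = 5.64e-06). In RNA from whole wells, a change in the number of expressing cells and a change in RNA per cell cannot be told apart.

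AMD1 (ENSG00000123505, chromosome 6, 110874770 to 110895713) decarboxylates S-adenosylmethionine and so supplies the aminopropyl groups for spermidine and spermine. Its levels were 16.8, 15.8 and 18.1 FPKM in pectolinarigenin libraries 1 to 3, against 13.0, 12.9 and 12.3 FPKM in control libraries 1 to 3. The groups did not overlap, and the log2 fold change was 0.37 (SE 0.063; edgeR, adjusted p = 0.000193). The deposited FPKM imply a length of 10194 bases for AMD1, which is 145% of its summed exon length of 7027 bases in GENCODE 29, whereas for the other 9 genes the implied length was 93.8% to 100% of the exon length. The length itself affects the rank of AMD1 among the genes and cancels in its comparison between libraries. Whether its counts include reads from outside the GENCODE 29 exons was not tested.

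SMS (ENSG00000102172, chromosome X, 21940573 to 21994835), which converts spermidine to spermine, had 40.9, 41.6 and 43.0 FPKM in pectolinarigenin libraries 1 to 3, against 51.7, 48.5 and 51.7 FPKM in control libraries 1 to 3. Every pectolinarigenin library was below every control library. The log2 fold change was -0.31 (SE 0.057; edgeR, adjusted p = 0.000346).

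SRM (ENSG00000116649, chromosome 1, 11054584 to 11060024), which converts putrescine to spermidine, was the lowest of the 4 synthesis genes, with 6.94, 7.03 and 8.19 FPKM in pectolinarigenin libraries 1 to 3 and 7.91, 9.51 and 10.5 FPKM in control libraries 1 to 3. The groups overlapped, because control library 1 lay below pectolinarigenin library 3. The log2 fold change was -0.36 (SE 0.11) and passed the test (edgeR, adjusted p = 0.0167), but not without pectolinarigenin library 1 (-0.31, adjusted p = 0.0533) or 2 (-0.32, 0.0560) or control library 2 (-0.34, 0.0595) or 3 (-0.27, 0.0958). The counts behind SRM were 211 to 315 in pectolinarigenin libraries and 279 to 336 in control libraries. Whether this depth bears on the lost calls of SRM was not tested.

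**Figure D1:**
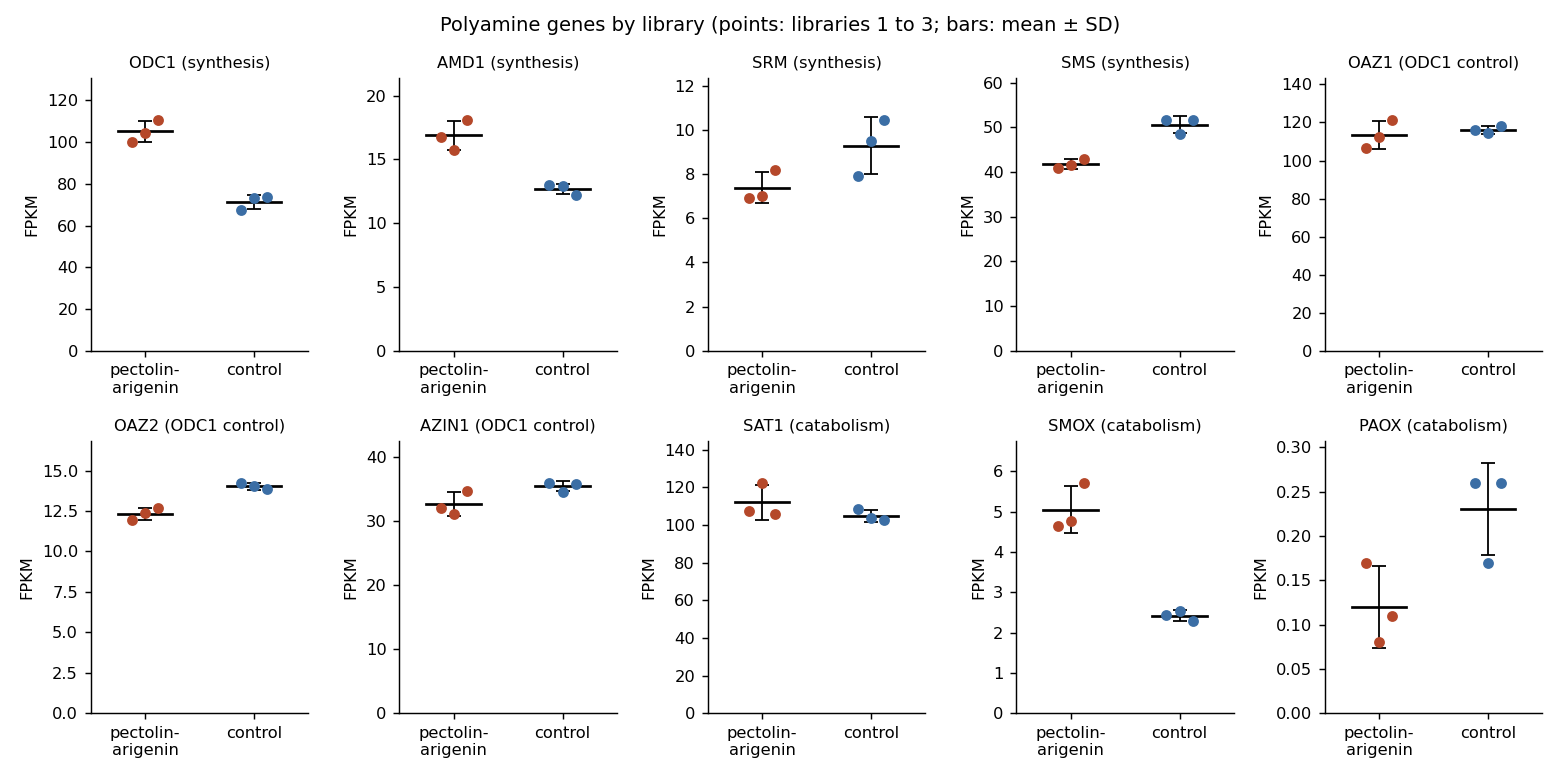
Expression of the 10 polyamine genes in FPKM (vertical axes, each from 0), with pectolinarigenin libraries on the left and control libraries on the right of every panel; points are libraries 1 to 3 from left to right, long bars are means and error bars are SD. ODC1, AMD1 and SMOX lie wholly higher in pectolinarigenin libraries, SMS and OAZ2 wholly lower, and the groups of the other 5 genes overlap.

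The genes that control ornithine decarboxylase changed little. OAZ1 (ENSG00000104904, chromosome 19, 2269509 to 2273490), the main antizyme, had 106.4, 112.3 and 121.3 FPKM in pectolinarigenin libraries 1 to 3, against 116.0, 114.2 and 118.2 FPKM in control libraries 1 to 3. The pectolinarigenin values ran from below to above the control values. Its log2 fold change was -0.072 (SE 0.061; edgeR, adjusted p = 0.340). Without pectolinarigenin library 3 it was -0.13 and passed the test (adjusted p = 0.0325).

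OAZ2 (ENSG00000180304, chromosome 15, 64687573 to 64703281), a second antizyme gene, fell. It had 11.9, 12.4 and 12.7 FPKM in pectolinarigenin libraries 1 to 3 and 14.3, 14.0 and 13.8 FPKM in control libraries 1 to 3, with no overlap. The log2 fold change was -0.22 (SE 0.055; edgeR, adjusted p = 0.00350).

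AZIN1 (ENSG00000155096, chromosome 8, 102826357 to 102893864) encodes an enzymatically inactive relative of ornithine decarboxylase that binds antizymes and so frees the enzyme. It had 32.0, 31.1 and 34.7 FPKM in pectolinarigenin libraries 1 to 3 and 36.0, 34.6 and 35.7 FPKM in control libraries 1 to 3. Pectolinarigenin library 3 lay within the control range and the other 2 lay below it. The log2 fold change of -0.16 (SE 0.059) was close to the threshold (edgeR, adjusted p = 0.0397). It did not pass without pectolinarigenin library 1 (adjusted p = 0.0631) or 2 (0.156) or control library 1 (0.119), 2 (0.0750) or 3 (0.119), and it was -0.12 with library totals in place of TMM scaling factors (0.0943).

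Within each library, ODC1 was set against the sum of both antizyme transcripts, a ratio that does not depend on the scaling of libraries. It was 0.847, 0.838 and 0.826 in pectolinarigenin libraries 1 to 3 and 0.516, 0.570 and 0.557 in control libraries 1 to 3. The ratio was thus above every control value in every pectolinarigenin library, with means of 0.837 ± 0.0109 and 0.548 ± 0.0278 (SD, n = 3 each). The ratio of AZIN1 to the same sum was 0.249 to 0.270 in pectolinarigenin libraries and 0.270 to 0.276 in control libraries. That of OAZ2 to OAZ1 was 0.105 to 0.112 and 0.117 to 0.123 in the same order.

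The ratios along the synthesis route also separated the groups, as far as they set a decarboxylase against a transferase. ODC1 over SRM was 13.5 to 14.9 in pectolinarigenin libraries and 7.02 to 8.51 in control libraries. AMD1 over SMS was 0.380 to 0.421 and 0.237 to 0.266 in the same order. Ratios within a pair of genes that moved the same way overlapped: SMS over SRM was 5.25 to 5.91 in pectolinarigenin libraries and 4.94 to 6.53 in control libraries, and ODC1 over AMD1 was 5.98 to 6.62 and 5.19 to 6.00. These ratios restate the changes of the single genes and were given no test.

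**Figure D2:**
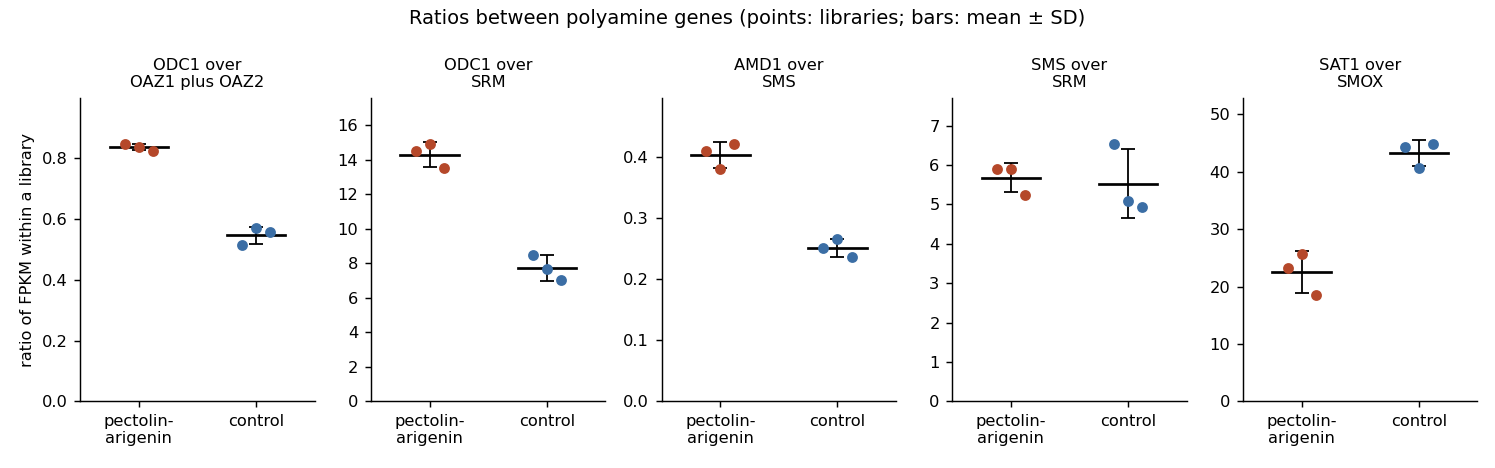
Ratios of FPKM between polyamine genes within each library (vertical axes, no unit, each from 0), with pectolinarigenin libraries on the left and control libraries on the right; points are libraries 1 to 3, long bars are means and error bars are SD. ODC1 over both antizymes, ODC1 over SRM and AMD1 over SMS are higher in all pectolinarigenin libraries, SAT1 over SMOX is lower in all of them, and SMS over SRM overlaps.

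The catabolic genes differed from each other. SMOX (ENSG00000088826, chromosome 20, 4120980 to 4187747), which oxidises spermine to spermidine and releases hydrogen peroxide, had the largest change of the 9 tested genes. It had 4.65, 4.77 and 5.72 FPKM in pectolinarigenin libraries 1 to 3 and 2.44, 2.55 and 2.29 FPKM in control libraries 1 to 3. No values overlapped, and the counts behind them were 220, 229 and 342 in pectolinarigenin libraries and 134, 140 and 102 in control libraries. The means were 5.05 ± 0.586 and 2.43 ± 0.131 FPKM (SD, n = 3 each), and the log2 fold change was 1.02 (SE 0.12; edgeR, adjusted p = 6.19e-06). The absolute change of SMOX was at the 95.7th percentile of all tested genes and that of ODC1 at the 80.9th, while the others lay at or below the 67.6th.

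SAT1 (ENSG00000130066, chromosome X, 23783173 to 23786226), the acetyltransferase that starts the other catabolic route and is a highly inducible enzyme, had 107.7, 122.6 and 106.0 FPKM in pectolinarigenin libraries 1 to 3 and 108.4, 103.7 and 102.6 FPKM in control libraries 1 to 3. The groups overlapped, and pectolinarigenin library 2 stood above the other 5 libraries. The log2 fold change was 0.057 (SE 0.062; edgeR, adjusted p = 0.464), and without pectolinarigenin library 2 it was -0.0065 (adjusted p = 0.939). The ratio of SAT1 to SMOX within a library was 18.5 to 25.7 in pectolinarigenin libraries and 40.7 to 44.8 in control libraries.

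PAOX (ENSG00000148832, chromosome 10, 133379234 to 133391694), the oxidase that acts on acetylated polyamines, had 6, 3 and 5 counts in pectolinarigenin libraries 1 to 3 and 11, 7 and 9 counts in control libraries 1 to 3. At 0.12 ± 0.0458 and 0.23 ± 0.052 FPKM (SD, n = 3 each) it lay under the minimum for the test. Summed over libraries and scaled by the total counts, the 14 counts of the pectolinarigenin group against the 27 of the control group gave a ratio of 0.516, with an exact 95% interval of 0.250 to 1.02 for counting error alone. A difference was not detectable at this depth: without the expression filter its log2 fold change was -0.95 (SE 0.55; edgeR, adjusted p = 0.246). A same-strand gene, AL360181.3, overlaps PAOX and had 14 to 19 counts in pectolinarigenin libraries and 14 to 22 in control libraries. How reads in the overlap were counted is not given in the sources used here.

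**Figure D3:**
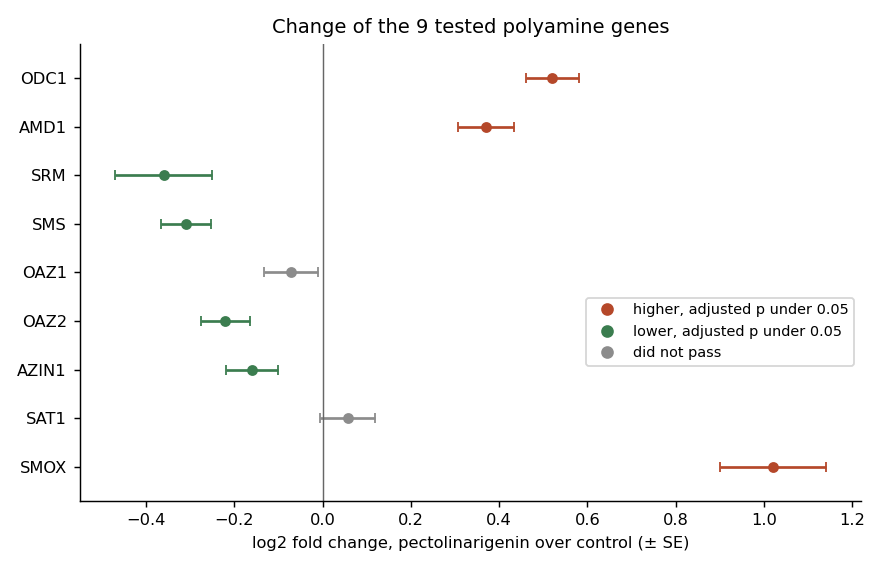
Log2 fold change of the 9 tested polyamine genes, pectolinarigenin over control (horizontal axis), from the edgeR fit; points are estimates, error bars are SE and colours give the call at an adjusted p under 0.05. SMOX, ODC1 and AMD1 are called higher, SRM, SMS, OAZ2 and AZIN1 lower, and OAZ1 and SAT1 did not pass.

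Ordered by level per length, control cells had OAZ1 (116 ± 1.98 FPKM), SAT1 (105 ± 3.08) and ODC1 (71.3 ± 3.47) highest, followed by SMS, AZIN1, OAZ2, AMD1, SRM, SMOX and PAOX. In pectolinarigenin cells OAZ1 (113 ± 7.5), SAT1 (112 ± 9.1) and ODC1 (105 ± 5.2; SD, n = 3 each) overlapped between libraries, whereas in control cells every ODC1 value was under every OAZ1 and SAT1 value. AMD1 was above OAZ2 in every pectolinarigenin library and below it in every control library, on the deposited lengths. With the shorter exon length of GENCODE 29 and the same counts, AMD1 would rank above OAZ2 in both groups.

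Pseudogenes named after the members had few counts. The highest was ODCP, an ODC1 copy, with 5 to 9 counts in pectolinarigenin libraries and 3 to 12 in control libraries, against 4494 to 6272 and 3105 to 3805 for ODC1. Antisense or opposite-strand genes overlap OAZ1, OAZ2 and AZIN1, and the largest of them were JSRP1, at OAZ1, with 26 to 36 and 20 to 30 counts, and AZIN1-AS1, with 20 to 31 and 26 to 33 counts, in the same order. The strand setting of the counting is not given in the sources used here, so reads of such pairs cannot be assigned with certainty. On the same strand, SNORA80B overlaps ODC1 and had 5 to 9 counts in pectolinarigenin libraries and 0 to 2 in control libraries. AC005258.1 overlaps OAZ1 on its strand and had 0 counts in every library.

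Around the 10 genes, 44 others of transport, hypusine formation, methionine and arginine metabolism and transcriptional control were listed, of which 34 were tested. Of these, 13 rose, 7 fell and 14 did not pass, where 50.6% of all tested genes changed, 25.3% in each direction. The 34 had a median log2 fold change of 0.15, against 0.00071 over all tested genes. ARG2 is counted among those that rose, although it reached the minimum for the test only through the pectolinarigenin group, where it is high. These lists were drawn up with earlier results of these data known.

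Of 7 tested polyamine transport genes, 2 rose and none fell (25.3% of all tested genes rose and 25.3% fell). SLC3A2, the heavy chain of amino acid transporters that has also been described in polyamine export, had 60.9, 66.8 and 69.1 FPKM in pectolinarigenin libraries 1 to 3, against 16.6, 18.0 and 17.7 FPKM in control libraries 1 to 3, a log2 fold change of 1.87 (SE 0.064; edgeR, adjusted p = 2.53e-11). The other gene that rose was SLC18B1, a vesicular polyamine transporter, at 0.33 (SE 0.06). The lysosomal polyamine exporter ATP13A2 (0.23, SE 0.12) and its relative ATP13A3 (-0.07, SE 0.059) did not pass. SLC18B1, ATP13A2 and ATP13A3 were chosen for mention after their values were seen.

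Spermidine is also the donor for hypusine, a modified lysine of the translation factor eIF5A. EIF5A, which encodes that factor, had 131.2, 133.6 and 151.0 FPKM in pectolinarigenin libraries 1 to 3 and 112.4, 112.4 and 115.6 FPKM in control libraries 1 to 3. It rose by a log2 fold change of 0.25 (SE 0.063; edgeR, adjusted p = 0.00397). Of the 4 tested genes of this list it was the only 1 called higher, beside 25.3% of all tested genes. The other 3 genes of this list, the modifying enzymes DHPS (0.17, SE 0.084) and DOHH (0.26, SE 0.11) and the paralogue EIF5A2 (-0.096, SE 0.095), did not pass and are named to complete the list.

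Among 8 tested genes of S-adenosylmethionine supply and methylthioadenosine salvage, 3 rose and 3 fell, beside the same 25.3% in each direction over all tested genes. MAT1A, the S-adenosylmethionine synthetase of differentiated liver, had 8.74, 11.0 and 7.52 FPKM in pectolinarigenin libraries 1 to 3 and 14.9, 17.4 and 18.0 FPKM in control libraries 1 to 3, a log2 fold change of -0.93 (SE 0.11; edgeR, adjusted p = 5.79e-06). MAT2A, the synthetase of extrahepatic and growing cells, rose by 0.56 (SE 0.06; adjusted p = 2.61e-06) and had 50.7 to 55.4 FPKM in pectolinarigenin libraries and 33.4 to 36.0 FPKM in control libraries. ADI1, an enzyme of the salvage route that returns methylthioadenosine to methionine, rose by 0.77 (SE 0.066; adjusted p = 3.25e-07), and ENOPH1, the enzyme before it, by 0.34 (SE 0.058). MTAP, which cleaves methylthioadenosine, and MRI1, which acts next, changed by -0.27 (SE 0.064) and -0.28 (SE 0.079), both passing the test. MAT2A, ENOPH1, MTAP and MRI1 were chosen for mention after their values were seen.

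Of 9 tested genes of arginine and ornithine supply, 4 rose and 3 fell, again beside 25.3% in each direction over all tested genes. The arginases, which release ornithine, moved apart: ARG1, the liver enzyme, had 8.79, 8.82 and 13.0 FPKM in pectolinarigenin libraries 1 to 3, against 26.0, 28.3 and 25.9 FPKM in control libraries 1 to 3 (log2 fold change -1.41, SE 0.12; edgeR, adjusted p = 3.21e-07). ARG2, the mitochondrial enzyme, had 1.80, 1.61 and 1.94 FPKM against 0.92, 0.66 and 0.64 FPKM in the same order (1.23, SE 0.21; adjusted p = 0.000167). Every control value of ARG2 was under 1 FPKM, with 22 to 39 counts. It therefore reached the minimum for the test only through the pectolinarigenin group, where it is high, and it is counted among the 4 that rose. OAT, which interconverts ornithine and glutamate semialdehyde, rose by 0.95 (SE 0.061; adjusted p = 2.05e-08), and ASS1, which makes argininosuccinate on the way to arginine, rose by 1.15 (SE 0.066; adjusted p = 5.27e-09). In ARG1, ARG2, OAT and ASS1 the groups did not overlap, as in 58.9% of all tested genes. ASL, the enzyme after ASS1 on that way, was called lower (-0.32, SE 0.069), as was the ornithine carrier SLC25A15 (-0.46, SE 0.073). SLC7A1 was called higher (0.32, SE 0.085). ASL, SLC25A15 and SLC7A1 were chosen for mention after their values were seen.

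Of the relatives of the members, SAT2, a paralogue of SAT1, was the only one of 5 that was tested, and it rose by 0.40 (SE 0.071; edgeR, adjusted p = 0.000256), with 62.9, 76.3 and 66.0 FPKM in pectolinarigenin libraries 1 to 3 and 52.6, 47.7 and 50.8 FPKM in control libraries 1 to 3. OAZ3, AZIN2 and AOC1 had at most 24 counts in any library, and SATL1 had none in any, which allows a level of up to 0.148 to 0.198 CPM, depending on the library, by counting error.

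Among 5 regulators, 2 rose and 1 fell, beside 25.3% in each direction over all tested genes. MYC and MYCN, transcription factors that bind E-boxes, moved in opposite directions. MYC had 16.9, 13.3 and 18.9 FPKM in pectolinarigenin libraries 1 to 3, against 5.03, 5.26 and 5.30 FPKM in control libraries 1 to 3 (log2 fold change 1.62, SE 0.11; edgeR, adjusted p = 2.95e-08). MYCN had 5.24, 5.49 and 5.14 FPKM against 12.9, 13.6 and 12.4 FPKM in the same order (-1.33, SE 0.081; adjusted p = 1.05e-08). NFE2L2, which encodes NRF2 and was chosen for mention after its values were seen, rose by 0.42 (SE 0.054). MAX (0.073, SE 0.089) and PMF1, a partner of NRF2 at SAT1 (-0.16, SE 0.14), did not pass and are named to complete the list. Whether any of these factors bears on the polyamine genes was not tested.

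**Figure D4:**
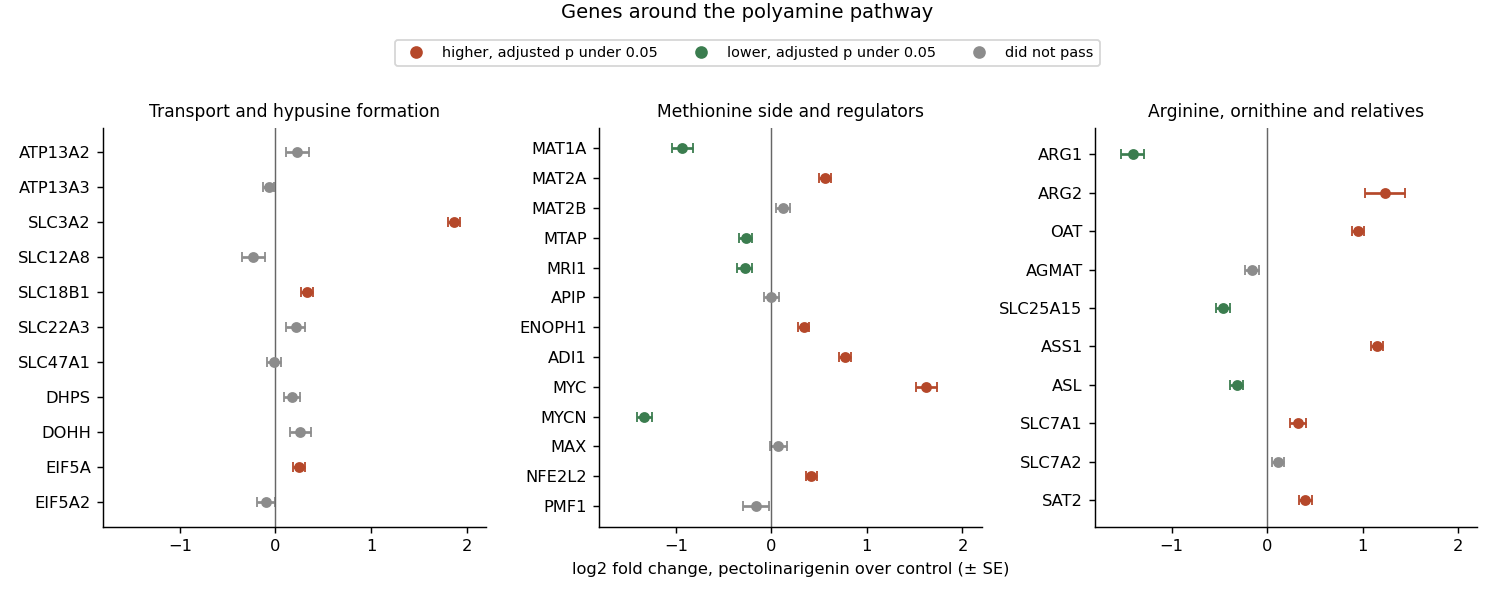
Log2 fold change of the 34 tested genes around the polyamine pathway, pectolinarigenin over control (horizontal axes), from the edgeR fit; points are estimates, error bars are SE and colours give the call at an adjusted p under 0.05. SLC3A2 (1.87), MYC (1.62) and ARG2 (1.23) lie farthest to the right and ARG1 (-1.41) and MYCN (-1.33) farthest to the left. ARG2 was under 1 FPKM in every control library.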

How the data were processed

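The deposited table held, per gene and library, a whole-number count that the authors had not normalized and an FPKM value that the authors scaled by gene length and library total. Tools named in the submitters' processing notes are HTSeq 0.6.1, HISAT2 2.0.1 and cutadapt 1.9.1 and the build is GRCh38; which annotation release and strand setting were used is not stated there. Counts of all genes with a mean FPKM of at least 1 were tested in edgeR 4.0.16 (quasi-likelihood; R 4.3.3) with TMM scaling factors and no covariate, 2-sided, with Benjamini-Hochberg adjustment over 12829 genes and a threshold of 0.05. SE were derived from the F statistic. The fit was tested on simulated data. DESeq2 1.42.0, limma 3.58.1 on log2(FPKM + 1) or log2(FPKM + 0.1), other scalings and filters, a replicate block and leaving out single libraries were the alternatives. The depth was 15140022 to 20311261 counts per library, and no libraries of a group agreed within sampling noise (chi-square per degree of freedom at least 1.60). Gene positions and exon lengths came from GENCODE 29. The members, lists and tests were chosen with earlier results of these data known. All 10 members are named; of the listed other genes, those that passed with an absolute log2 fold change of at least 0.58 and the smallest p of each list. Any other listed gene was named after its values were seen.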

Additional observations from a re-analysis of the deposited data

How the results depend on the processing

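The calls of ODC1, AMD1, SMS and OAZ2 held in all 14 alternatives and that of SMOX in the 13 in which it was tested. SMOX was not tested at a mean FPKM of at least 5. The members that changed numbered 5 to 8 without single libraries and 6 or 7 under the other alternatives, the members that rose 3 (2 at a mean FPKM of at least 5) and the members that fell 2 to 5 without single libraries, which moves with SRM, AZIN1 and OAZ1. Besides the losses given above, AZIN1 did not pass without the expression filter (adjusted p = 0.116) or in limma with a pseudocount of 1 (0.0924) or 0.1 (0.0945); the cause was not tested. Without single libraries the log2 fold change of SAT1 ran from -0.0065 (without pectolinarigenin library 2) to 0.091 (without pectolinarigenin library 3). At a mean FPKM of at least 5, where fewer genes are tested, 4098 genes changed, 2088 higher and 2010 lower, against 6486, 3243 and 3243. Of the genes outside the members that are given as changed, 17 were followed through the alternatives, and all 236 values kept direction and call. ASL, SLC25A15 and SLC7A1 were not followed. With the replicate block 7 members and 6540 genes changed; same-numbered libraries did not deviate together (r = -0.01, 0.02 and -0.01), so the numbers were not taken as pairs. Library totals in place of TMM moved the median log2 fold change of all genes to 0.038. Depth limits PAOX. Whether depth bears on the lost calls of SRM was not tested.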

Other observations

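AZIN2 and ODC1-DT lay below the expression minimum, so they were not tested, and were chosen after their values were seen. AZIN2, a relative of AZIN1, had 3, 8 and 4 counts in pectolinarigenin libraries and 15, 13 and 5 in control libraries, which overlap. The divergent transcript ODC1-DT had 44, 74 and 70 counts in pectolinarigenin libraries and 74, 71 and 72 in control libraries. These counts are not scaled by library total, and whether ODC1-DT moved with ODC1 was not tested.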
